A study of Mus musculus with 165 samples.

Results

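Activity-dependent immediate early genes are transcribed within a short time of a stimulus, from factors already present in the cell. In neurons the trigger is calcium entry and MAP kinase signalling after synaptic firing, which act through CREB at cAMP response elements (CRE) and through serum response factor at CArG boxes. In the liver the same genes respond to growth factors, stress and inflammatory signals. The 10 genes described here were the transcription factors Fos, Fosb and Junb of the AP-1 family, the zinc-finger factors Egr1, Egr2 and Egr4, the neuronal basic helix-loop-helix factor Npas4, the orphan nuclear receptor Nr4a1, and 2 synaptic effectors, Arc and Homer1. They were chosen by symbol, with earlier results of these data known but with no measured value in the rule, and all 10 matched 1 row each of the 55471 rows in both deposited tables. Arc encodes a capsid-like protein that takes part in removing AMPA receptors from synapses, and Homer1 encodes scaffold proteins that link metabotropic glutamate receptors to the postsynaptic density. Counts per gene do not separate the short activity-induced form of Homer1 from its long constitutive forms, nor the truncated form of Fosb from the full one.

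The study sequenced polyadenylated RNA from the brain and liver of male C57BL/6J/Ukj mice, an inbred strain, that were kept only to age. Brain was represented by 15 libraries at 3 months, 16 at 9 months, 16 at 15 months, 17 at 24 months and 18 at 28 months. Liver was represented by 16, 16, 16, 17 and 18 libraries at the same ages, and 82 of the 83 mice gave both tissues. Every library carried 1 of 3 batch labels, prep 1 to prep 3, and each prep held all 5 ages in both tissues. No treatment, stimulus, brain region or hour of death is named in the labels, so the levels are those of tissue as it was collected.

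Total counts ran from 11460609 to 73390216 per brain library and from 5823039 to 57490197 per liver library. At 3 and 28 months, 8 neuronal markers summed to 3840 to 7580 CPM (the count of a gene relative to the TMM-scaled total of its library) in brain and to 6.72 to 55.2 CPM in liver. The 6 hepatocyte markers, which include Ttr of the choroid plexus, summed to 29700 CPM or more in liver and to 5910 CPM or less in brain. The brain pieces were not alike in content, since at the same ages 6 choroid plexus markers summed to between 45.8 and 6470 CPM. The brain library least like the others, replicate 15 at 28 months, had a mean correlation of 0.853 with the other brain libraries. It was also the shallowest brain library, and the 28-month values of the 10 genes are also given from a fit without it and the next least-alike brain library, replicate 13 at 24 months. The gene lists are given with both.

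Promoter windows show what these genes share in sequence. RefSeq start sites of GRCm38.p6, each with 250 bases before and 50 bases after the start, were at hand for 8 of the 10 genes, in 13 windows because Egr2 and Homer1 had several starts. Arc and Egr1 had no window and were not searched. Each of the 8 genes had at least 1 short CRE motif (TGACG, or CGTCA on the other strand) in a window, and 10 of the 13 windows held one, against 20.8% of all 32851 windows in the RefSeq table. The full CRE, TGACGTCA, which contains the short motif on both strands, was in none of the 13 windows and in 1.79% of all windows. A CArG box, searched on both strands by its usual consensus, was found in 4 windows, all of Egr2, against 1.63% of all windows. Sites more than 250 bases before a start lie outside the windows, so a gene without a match here may still have one. A site for the EGR proteins themselves, GCGTGGGCG or GCGGGGGCG on either strand, was found in the windows of Fosb and Nr4a1, against 3.47% of all windows. Windows of Egr2 overlap and share their motifs, so windows are not independent. The shares are of windows and not of genes. They were not matched for CG content, although the short CRE motif holds a CG. The windows of 6 genes that the results below turn on are printed 5′ to 3′ on the gene's strand, with short CRE motifs and CArG boxes in capitals. Fos lies at chr12:85473640-85473939 on the plus strand, Junb at chr8:84978699-84978998 on the minus strand, the Egr2 start shown at chr10:67537619-67537918 on the plus strand, Npas4 at chr19:4989922-4990221 on the minus strand, Nr4a1 at chr15:101266596-101266895 on the plus strand and the Homer1 start shown at chr13:93303507-93303806 on the plus strand.
Fos: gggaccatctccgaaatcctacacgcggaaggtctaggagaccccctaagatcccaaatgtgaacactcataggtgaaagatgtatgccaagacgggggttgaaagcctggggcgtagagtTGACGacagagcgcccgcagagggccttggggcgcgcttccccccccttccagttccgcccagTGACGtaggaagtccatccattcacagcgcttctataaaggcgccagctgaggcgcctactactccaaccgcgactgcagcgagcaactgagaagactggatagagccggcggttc
Junb: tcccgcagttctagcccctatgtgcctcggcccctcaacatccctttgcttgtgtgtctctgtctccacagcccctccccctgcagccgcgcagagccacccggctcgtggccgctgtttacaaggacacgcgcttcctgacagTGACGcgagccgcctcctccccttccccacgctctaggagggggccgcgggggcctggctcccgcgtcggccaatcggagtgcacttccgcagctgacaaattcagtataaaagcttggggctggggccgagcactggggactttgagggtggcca
Egr2: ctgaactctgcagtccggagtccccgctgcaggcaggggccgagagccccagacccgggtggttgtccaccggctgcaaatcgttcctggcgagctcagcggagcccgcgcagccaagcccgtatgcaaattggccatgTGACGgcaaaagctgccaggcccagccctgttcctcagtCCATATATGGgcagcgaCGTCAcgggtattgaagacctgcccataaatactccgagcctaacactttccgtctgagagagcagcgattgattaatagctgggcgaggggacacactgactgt
Npas4: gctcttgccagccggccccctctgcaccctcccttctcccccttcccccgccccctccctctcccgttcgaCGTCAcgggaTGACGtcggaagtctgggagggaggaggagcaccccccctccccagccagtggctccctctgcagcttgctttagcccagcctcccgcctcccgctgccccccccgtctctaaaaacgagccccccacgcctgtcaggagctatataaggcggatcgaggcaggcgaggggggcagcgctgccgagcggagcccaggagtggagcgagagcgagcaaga
Nr4a1: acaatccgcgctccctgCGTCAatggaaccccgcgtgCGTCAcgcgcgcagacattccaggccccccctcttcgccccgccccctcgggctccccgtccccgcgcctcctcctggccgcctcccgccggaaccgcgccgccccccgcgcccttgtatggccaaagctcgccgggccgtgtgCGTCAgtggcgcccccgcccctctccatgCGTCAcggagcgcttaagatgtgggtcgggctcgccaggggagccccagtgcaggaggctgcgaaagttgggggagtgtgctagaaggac
Homer1: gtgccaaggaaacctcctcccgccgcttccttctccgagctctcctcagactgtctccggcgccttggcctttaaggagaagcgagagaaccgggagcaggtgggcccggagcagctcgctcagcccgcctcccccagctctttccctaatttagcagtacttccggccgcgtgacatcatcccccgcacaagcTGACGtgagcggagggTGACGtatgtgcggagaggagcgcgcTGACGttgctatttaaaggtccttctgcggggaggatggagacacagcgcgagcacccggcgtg
Npas4 carried 2 short CRE motifs in opposite orientation, Nr4a1 carried 4 and Homer1 carried 3, from position -56 to -10 of its start. In the Egr2 window shown the CArG box sat between 2 short CRE motifs. These are matches of letters in a window, not measured binding.

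In the brain all 10 genes passed the filter on low counts, and 2 of them, both effectors, were lower in old mice. Arc and Homer1 were at about 0.7 of their 3-month level at 28 months, and none of the 8 transcription factors was called. Arc was already called at 24 months, and no member was called at 9 or 15 months. The count of 2 lower members at 28 months stands against 28.3% of all 18711 genes called in that comparison and 12% called lower, so 2 of 10 is a share near the background.

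Homer1 stood at 112, 145 and 177 CPM (lowest, median and highest of 15 libraries) at 3 months. It stood at 99.5, 142 and 189 CPM at 9 months and at 113, 137 and 157 CPM at 15 months. It then stood at 94.3, 117 and 197 CPM at 24 months and at 46.9, 103 and 136 CPM at 28 months. The median fell step by step with age, and the 3-month and 28-month groups overlapped between 112 and 136 CPM. From 3 to 28 months the log2 fold change was -0.51 ± 0.08 (SE, edgeR quasi-likelihood test, adjusted p = 1.67e-06), a fold of 0.7. The value was -0.60, -0.25 and -0.67 in preps 1, 2 and 3 fitted alone, with adjusted p of 0.000685, 0.471 and 0.0265, so prep 2 alone did not give the call. Without the 2 least-alike libraries the value was -0.47 (adjusted p = 4.5e-07). At 24 against 3 months Homer1 missed the threshold at -0.24 ± 0.09 (adjusted p = 0.0537).

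Arc stood at 88.9, 134 and 226 CPM at 3 months. It stood at 62.8, 123 and 197 CPM at 9 months and at 66.5, 122 and 168 CPM at 15 months. At 24 months its level was 58.4, 79.4 and 179 CPM and at 28 months 43.3, 93.1 and 177 CPM. The median dropped between 15 and 24 months while the highest old libraries stayed within the young range, so the groups overlapped widely. The log2 fold change was -0.50 ± 0.16 at 24 months (adjusted p = 0.0336) and -0.52 ± 0.16 at 28 months (adjusted p = 0.00977). Arc was the 1 member called at 24 months, where 10.1% of all genes were called and 3.86% were called lower. That call depended on single libraries, since leaving out any 1 of 15 single libraries ended it, with values between -0.48 and -0.44, as did the fit with the replicate number as a block (-0.50, adjusted p = 0.0516). The 28-month value stayed called without any 1 library, between -0.57 and -0.46, but was -0.33 (adjusted p = 0.178) with a clock score as covariate and -0.46 (adjusted p = 0.0535) with forebrain and striatum marker scores as covariates. With 1 prep at a time it was -0.37, -0.70 and -0.57, below 0 in each and called in none. Without the 2 least-alike libraries it was -0.48 (adjusted p = 0.0132). In whole tissue, fewer cells that express a gene and less RNA per cell cannot be told apart.

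None of the AP-1 factors was called in the brain at 28 months. Fos stood at 4.78, 10.2 and 21.0 CPM at 3 months and at 1.95, 8.31 and 18.5 CPM at 28 months, and the groups overlapped over most of their range. Its log2 fold change of -0.27 ± 0.23 was not called (adjusted p = 0.392). Fosb stood at 6.85, 9.32 and 13.3 CPM at 3 months and at 7.81, 9.5 and 15.1 CPM at 28 months (log2 fold change 0.04 ± 0.09). Junb stood at 36.3, 45.6 and 78.6 CPM at 3 months and at 35.3, 44.0 and 71.2 CPM at 28 months (log2 fold change -0.08 ± 0.10). Both groups covered nearly the same range for these genes.

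Of the EGR factors, Egr2, the least abundant, was closest to a call. It stood at 1.15, 2.51 and 7.00 CPM at 3 months and at 0.765, 1.71 and 3.33 CPM at 28 months, and the 2 lowest old libraries, at 0.765 and 0.961 CPM, lay below the young range while the others overlapped it. Its log2 fold change of -0.60 ± 0.25 missed the threshold (adjusted p = 0.0679), and it passed when replicate 7 at 3 months or replicate 4 at 28 months was left out (-0.66 in both, adjusted p = 0.0444 and 0.0468) and in voom with quality weights (-0.68, adjusted p = 0.0305). Over all 33 fits without 1 library it ran from -0.66 to -0.42, with an adjusted p of up to 0.209, and it was -0.32 (adjusted p = 0.451) with the clock score as covariate. Egr1, a factor linked to memory consolidation, stood at 93.8, 132 and 206 CPM at 3 months and at 45.0, 116 and 166 CPM at 28 months (a log2 change of -0.21 ± 0.13, adjusted p = 0.219). Egr4 stood at 14.4, 19.8 and 38.5 CPM against 11.3, 21.1 and 31.0 CPM (log2 fold change -0.02 ± 0.12).

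Npas4, which is induced by neuronal depolarisation and recruits inhibitory synapses, stood at 9.10, 12.8 and 17.1 CPM at 3 months and at 8.48, 11.7 and 26.6 CPM at 28 months (log2 fold change -0.04 ± 0.14). Nr4a1 stood at 50, 66.8 and 116 CPM at 3 months and at 35.7, 66.3 and 92.8 CPM at 28 months (a log2 change of -0.12 ± 0.11, adjusted p = 0.442). Neither was called. The 2 lowest old Npas4 levels (8.48 and 8.78 CPM) lay just below the young range and the highest above it, and the 2 lowest old Nr4a1 levels (35.7 and 40.2 CPM) lay below the young range. Without the 2 least-alike libraries no transcription factor was called at 28 months either, with values of -0.21 for Fos, 0.06 for Fosb, -0.09 for Junb, -0.16 for Egr1, -0.59 for Egr2, -0.03 for Egr4, -0.12 for Npas4 and -0.09 for Nr4a1. Over the 10 genes the median of the values at 28 against 3 months was -0.17, against 0.01 over all genes tested. The genes moved together between brains, as given below, so these values are not independent. Several of those not called turned sign under other settings. With all ages tested together, Arc (adjusted p = 0.0197) and Homer1 (adjusted p = 2.06e-06) differed, against 20.6% of all genes. At 9 and 15 months 0 of 10 were called, where 0.315% and 0.871% of all genes were, and 0 and 1 member respectively had an unadjusted p under 0.05, the latter Fosb at 0.26 ± 0.09 (p = 0.00714). DESeq2 and voom also called 0 members at both ages. From 24 to 28 months 0 were called by edgeR against 1.09% of all genes, where Homer1 stood at -0.27 ± 0.08 (unadjusted p = 0.00152, adjusted p = 0.0822) and was called by DESeq2 and by voom. From 15 to 24 months 0 were called against 0.732%, with Arc at -0.37 ± 0.16 the 1 member with an unadjusted p under 0.05 (0.0223).

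**Figure D1:**
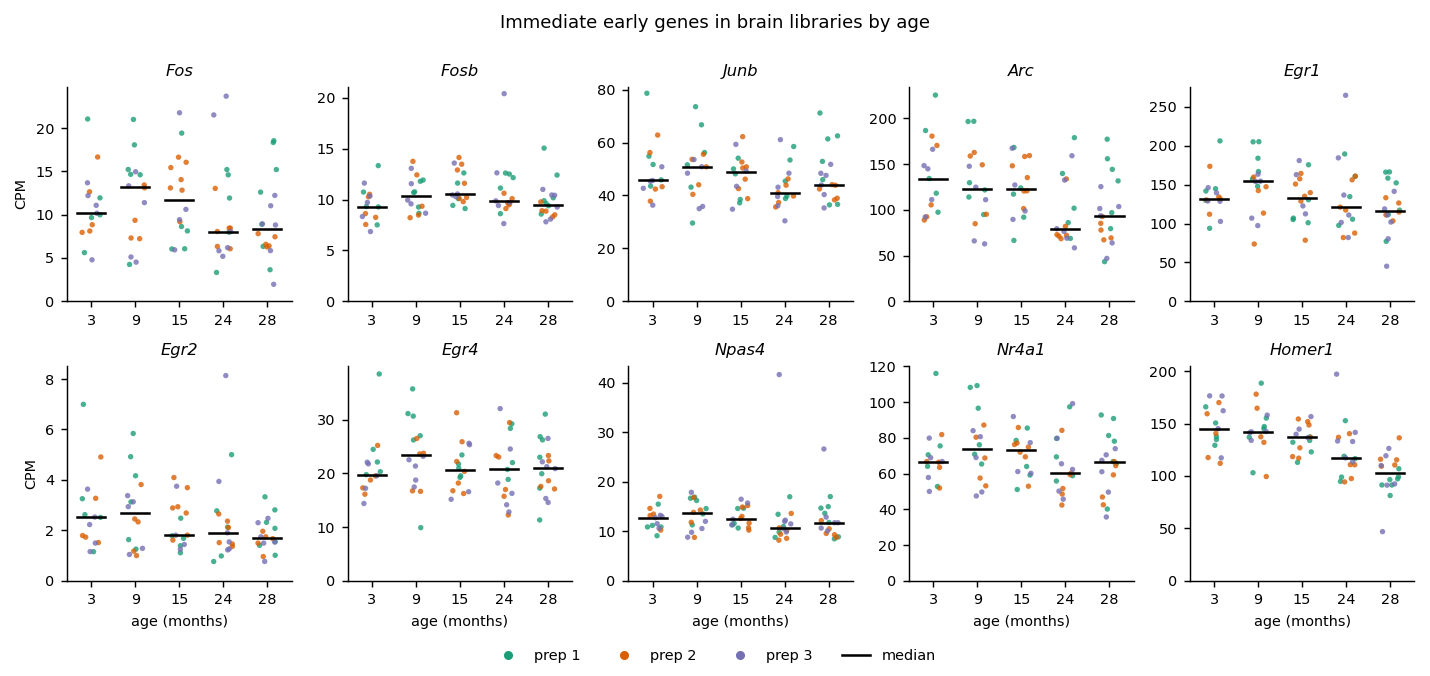
Level of each of the 10 genes in CPM (y axes, linear from 0) in every brain library, by age in months (x axes). Points are single libraries, coloured by prep, and black bars are medians. The Homer1 median is 145 CPM in the youngest and 103 CPM in the oldest group, and the Arc median 134 and 93.1 CPM. The youngest and oldest groups overlap in every panel.

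Levels per length put the genes in order in the brain. Per kilobase of exon, Arc was highest at 37.8 ± 13.1 CPM per kb (SD, n = 82 libraries over all ages), followed by Egr1 at 29.9 ± 8.01 and Junb at 20.5 ± 4.22. Nr4a1 followed at 19.6 ± 4.69, Homer1 at 10.8 ± 2.21 and Egr4 at 9.99 ± 2.56. Fos was at 4.59 ± 2.08, Npas4 at 3.10 ± 1.06, Fosb at 1.66 ± 0.33 and Egr2 at 0.698 ± 0.402 CPM per kb. Neighbours that differed by less than the larger SD were Arc and Egr1, Junb and Nr4a1, Homer1 and Egr4, and Fos and Npas4. Homer1 stood above Egr4 at 3 months (12.2 against 9.84 CPM per kb) and below it at 28 months (8.53 against 9.7). Exon length pooled all annotated isoforms, 11976 bases for Homer1.

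Most of the genes varied more between brains than other genes of like abundance. The biological coefficient of variation, the spread between libraries of 1 age and prep beyond counting error, was 44.5% for Fos, higher than in 98.8% of 1956 genes within 0.5 log2 units of its level. It was 48.6% for Egr2, 31.4% for Arc, 26.1% for Egr1 and 22.3% for Nr4a1, each above at least 91.8% of like genes. For Homer1 it was 16.8%, above 77.2%, and for Fosb 17.3%, above 67.7%. The median over all kept brain genes was 15.2%.

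The extremes were shared. All 10 highest levels came from 2 brain libraries. Replicate 16 at 24 months (prep 3) held the highest Fos, Fosb, Egr1, Egr2, Npas4 and Homer1, and replicate 2 at 3 months (prep 1) held the highest Junb, Arc, Egr4 and Nr4a1. Replicate 15 at 28 months held the lowest Fos, Egr1, Nr4a1 and Homer1 and yet a Npas4 level of 26.6 CPM, the highest of its age. The spread was not called different between 28 and 3 months for any of the 17 gene and tissue combinations (permutation test of the ratio of SDs, 100000 permutations, 0 at adjusted p under 0.05). Only Fos in the liver had an unadjusted p under 0.05 (0.0496), with SDs of log2 CPM of 0.60 at 28 and 1.00 at 3 months.

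Across brain libraries the genes moved together. After the means of age and prep were removed from log2 CPM, all 45 pairs had a positive Pearson correlation over 82 libraries, with a median of 0.55, and 42 were called at adjusted p under 0.05 (two-sided permutation test within age, adjusted over 45 pairs). The highest was between Arc and Nr4a1 (r = 0.89, Spearman's rho = 0.87, adjusted p = 1.67e-05 for both, from the smallest p that 100000 permutations can give), then Fos and Arc (0.86), Egr1 and Nr4a1 (0.85), Fos and Egr1 (0.82) and Fos and Nr4a1 (0.82). The 3 pairs not called were all of Homer1, with Junb (0.10), Egr4 (0.09) and Npas4 (0.04). Junb and Egr4 were closely tied to each other (0.76), while Fos and Egr4 were less so (0.31). Median correlation with the other 9 genes was highest for Arc at 0.74 and Fos at 0.73, and lowest for Npas4 and Homer1 at 0.39 each. Within preps 1, 2 and 3 alone, 31, 35 and 37 pairs were called, with medians of 0.57, 0.54 and 0.67, and all 45 were positive except in prep 1, where 41 were. Without the 2 libraries farthest from the median of the first gene of each pair, 43 pairs were called and the median was 0.60. Libraries extreme for the second gene alone were kept in that check.

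**Figure D2:**
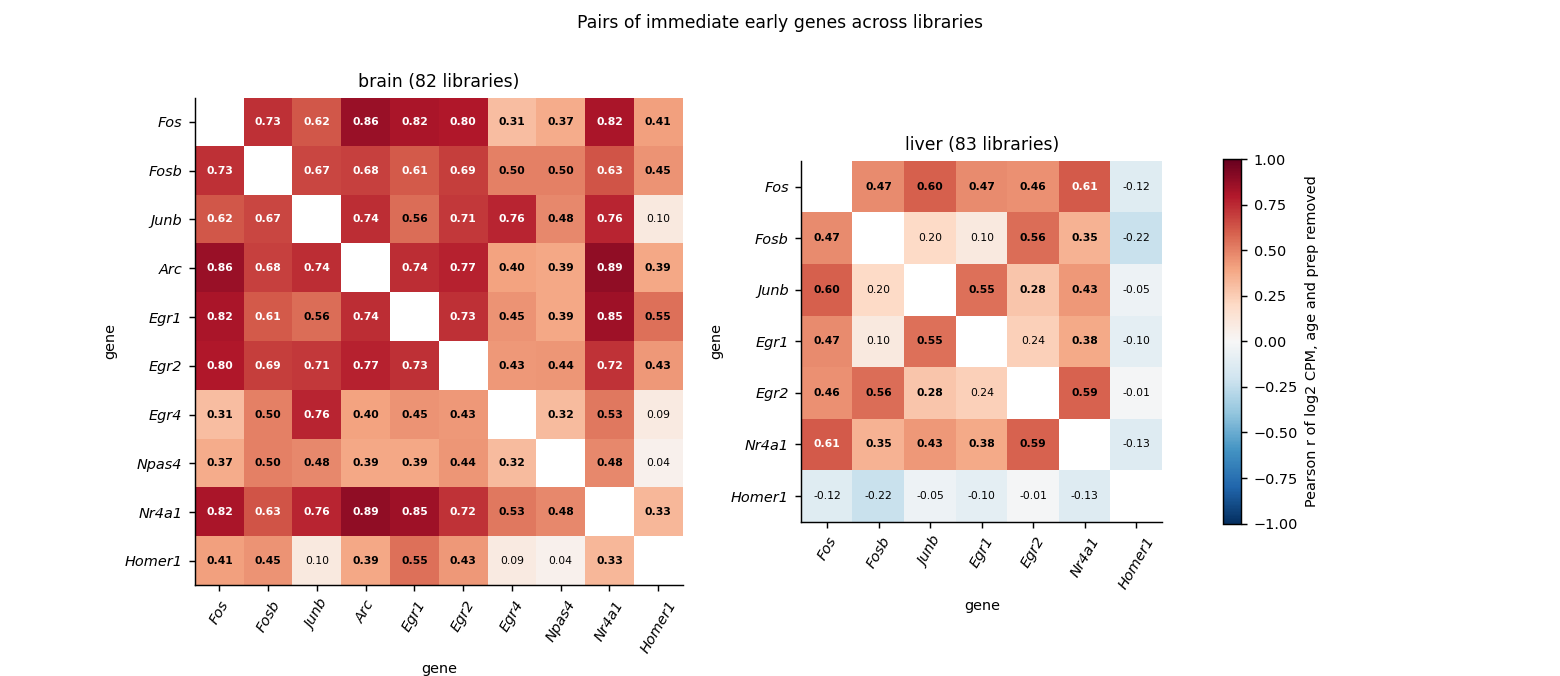
Pearson correlation of log2 CPM between pairs of genes across 82 brain libraries (left) and 83 liver libraries (right), after removing age and prep means. Colour gives r from -1 to 1, the printed value is r and bold marks adjusted p under 0.05. All brain pairs are positive with a median of 0.55, the liver median is 0.35, and Homer1 is slightly negative with the other 6 genes in the liver.

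Genes outside the list that followed it most closely in the brain were named by their correlation with the mean z-score of the 10 genes over 82 libraries, among 14997 genes that averaged 1 CPM or more. The first was 1700016P03Rik (r = 0.79, mean 4.61 CPM), then Dusp1 (0.71), a MAP kinase phosphatase, Dnajb5 (0.69), a co-chaperone, Nab2 (0.65), a corepressor of EGR factors, Stk40 (0.64), a kinase-like protein, and Per1 (0.63), a clock gene that is also CREB-responsive. These correlations are descriptions, with no test, and all points share libraries with the genes they are compared to. The annotation lists 1700016P03Rik as a processed transcript at chr11:75172560-75177633 on the plus strand of GRCm38, and the hairpins of miR-212 and miR-132 lie inside it. The mature 3p forms are printed, as RefSeq gives them, because they have the same seed, bases 2 to 8 in capitals.
mmu-miR-212-3p: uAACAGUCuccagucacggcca
mmu-miR-132-3p: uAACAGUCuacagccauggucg
The polyadenylated host RNA was counted here, and the mature microRNAs were not measured. Its log2 fold change from 3 to 28 months was 0.00 ± 0.18. Among the 6 genes, Dnajb5 was lower at 28 months (-0.41 ± 0.05, adjusted p = 3.09e-10), as was Stk40 (-0.16 ± 0.05, adjusted p = 0.0132), and Per1 was higher (0.19 ± 0.07, adjusted p = 0.0268).

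Other genes of the activity response, from lists chosen for their known roles, were called in both directions in the brain. Among 17 other early factors tested, 5 were lower at 28 months and 2 higher, against 12% of all genes lower and 28.3% called in either direction, and the median of the log2 changes was -0.13. Nfil3, a bZIP repressor, was lower (8.94 ± 1.38 CPM at 3 months, SD, and 6.20 ± 1.15 CPM at 28, change -0.53 ± 0.08, adjusted p = 1.84e-07), as was Nr4a2, an orphan receptor related to Nr4a1 (-0.34 ± 0.11, adjusted p = 0.0156). Csrnp1 was higher (0.27 ± 0.08, adjusted p = 0.00845). Of 22 early effectors and feedback genes, 4 were higher and 2 lower, with a median of 0.03. Dusp6, a MAP kinase phosphatase, was lower (-0.23 ± 0.08, adjusted p = 0.0178) and so was Zfp36l1, an RNA-decay factor (-0.31 ± 0.06, adjusted p = 0.000138). Arl4d (0.43 ± 0.15, adjusted p = 0.0209) and Ccn1 (0.20 ± 0.08, adjusted p = 0.0486) were higher. All genes together had a median of 0.01.

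Of 18 delayed activity genes, which follow the early wave, 4 were lower and 0 higher in the brain, with a median of -0.16. Inhba, the activin A subunit induced by synaptic activity, had a mean of 10.5 ± 2.20 CPM in young and 6.58 ± 1.97 CPM in old brains (a change of -0.66 ± 0.11, adjusted p = 4.5e-06). Spry4, a feedback inhibitor of MAP kinase signalling, was lower as well (-0.35 ± 0.08, adjusted p = 0.00023). Of 37 genes of the upstream calcium, CREB and MAP kinase signalling, 5 were lower and 2 higher, with a median of -0.03. Lower were Elk1, a partner of serum response factor (-0.39 ± 0.06, adjusted p = 3.92e-07), and Camk4, a calcium-dependent kinase of CREB (-0.32 ± 0.08, adjusted p = 0.000725). Higher were Rps6ka1 (0.26 ± 0.06, adjusted p = 0.00158) and Mapk3 (0.21 ± 0.07, adjusted p = 0.0151). Of 15 protein partners of Homer and Arc, 2 were lower, Homer2 (-0.23 ± 0.08, adjusted p = 0.0276) and Shank2 (-0.19 ± 0.06, adjusted p = 0.013), and 1 was higher, Dlgap1 (0.15 ± 0.05, adjusted p = 0.0155). Only for the other early factors was the share called in either direction, 7 of 17, above the 28.3% of all genes. The shares called lower were above the 12% of all genes for the other early factors (5 of 17), the delayed genes (4 of 18), the upstream genes (5 of 37) and the partners (2 of 15), and below it for the early effectors (2 of 22). These are counts without a test of the lists.

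**Figure D3:**
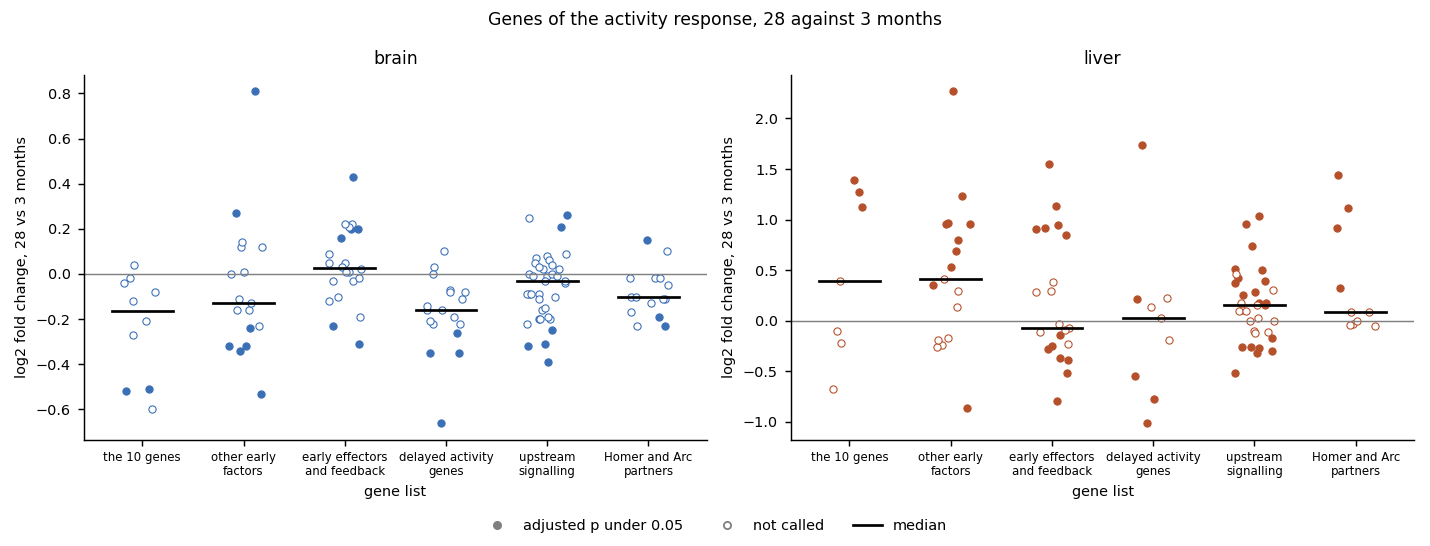
Log2 fold change from 3 to 28 months (y axes, with different ranges) of each tested gene in 6 lists, in brain (left) and liver (right). Filled points have an adjusted p under 0.05, open points are not called, and black bars are medians. Brain medians lie between -0.17 and 0.03 and liver medians between -0.07 and 0.41.

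Measures of what the brain samples contained moved with some of these results. The 8 neuronal markers were called in 0 of 8 cases at 28 against 3 months (median -0.02). Of the forebrain excitatory markers 1 of 6 was lower and of the striatal markers 1 of 6 was lower, with summed levels of 2460 to 3930 CPM at 3 and 2390 to 7210 CPM at 28 months for the first, and 59.2 to 143 and 65.1 to 126 CPM for the second. None of these markers was at 0 in all libraries. Within ages, Homer1 correlated with the neuronal score (r = 0.54, adjusted p = 0.0158), the forebrain score (0.54, adjusted p = 0.00125) and, negatively, the striatal score (-0.52, adjusted p = 0.0005), in a family of 50 relations chosen after the data were seen, of which 5 were called by Pearson's r. Spearman's rho was 0.20 (adjusted p = 0.195), 0.38 (adjusted p = 0.011) and -0.47 (adjusted p = 0.001) for these 3. Without the 2 libraries farthest on the score these were 0.28 (adjusted p = 0.0578), 0.32 (adjusted p = 0.028) and -0.42 (adjusted p = 0.0075). The other 2 called were of Egr1 and Nr4a1 with a thalamus and midbrain score (r = 0.32 for both, rho = 0.34 and 0.37, adjusted p = 0.0357 for both r), and they kept their call without the 2 farthest libraries (0.35 and 0.36). Fos and Arc missed the threshold with that score by r (0.28 and 0.26, adjusted p = 0.0831 and 0.104) but passed by rho (0.34 for both, adjusted p = 0.0216) and by r without the 2 farthest libraries (0.33 for both, adjusted p = 0.0227). With the striatal score Fos missed by r (0.16) but passed by rho (0.31, adjusted p = 0.0338) and without the 2 farthest libraries (0.38, adjusted p = 0.0118). Egr2 passed with the neuronal score by rho alone (-0.28, adjusted p = 0.0488). Fos and Egr4 passed with the forebrain score only without the 2 farthest libraries (-0.28 and 0.29, adjusted p = 0.0484 and 0.0462). Of the 6 thalamus and midbrain markers 0 were called at 28 months (median -0.05), with summed levels of 61.7 to 111 CPM at 3 and 52.8 to 91.4 CPM at 28 months. The heat shock genes were lower at 28 months in 4 of 6 cases in the brain (median -0.19, summed 1590 to 2410 CPM at 3 and 1400 to 2760 CPM at 28 months). Homer1 missed the threshold with their score by r (0.08, adjusted p = 0.645) but passed by rho (0.29, adjusted p = 0.0436) and by r without the 2 farthest libraries (0.37, adjusted p = 0.0118), and Junb and Egr2 likewise passed by rho alone (0.31 for both) and without the 2 farthest libraries (0.31 and 0.29). Other markers moved in the brain too. At 28 months 3 of 6 endothelial markers were lower and 1 higher (median -0.18), and 4 of 6 red cell markers were higher (median 0.98). The 3 neutrophil and 2 Kupffer and macrophage markers tested were all higher (medians 3.16 and 0.62). The neutrophil markers were low, with median sums of 0.704 CPM at 3 and 5.91 CPM at 28 months. The part of these markers and of the heat shock and thalamus scores in the age differences was not tested. With the forebrain and striatal scores as covariates the Homer1 change was -0.50 (adjusted p = 1.31e-06).

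The hour of death is not given in the labels, and immediate early genes are known to vary over the day. A clock score, the mean z-score of 6 genes that peak with Dbp minus that of Bmal1 and Npas2, correlated with Homer1 in the brain (r = -0.61, adjusted p = 0.00051, and Spearman's rho = -0.38, adjusted p = 0.00836). It correlated by r but not by rho with Egr1 (r = -0.41, adjusted p = 0.0137, and rho = -0.27, adjusted p = 0.0843) and with Fos (r = -0.33, adjusted p = 0.0435, and rho = -0.25, adjusted p = 0.103), over 51 relations in both tissues. Without the 2 libraries farthest on the clock score, Homer1 kept r = -0.39 (adjusted p = 0.00714), while Egr1 (-0.20) and Fos (-0.13) were no longer called, so those 2 relations rest on 2 libraries. The 6 clock genes were higher at 28 months in 3 of 6 cases (median 0.16; summed 629 to 791 CPM at 3 and 668 to 863 CPM at 28 months). With the clock score as a covariate, Homer1 stayed lower at 28 months (-0.29, adjusted p = 0.0061). No brain gene of the 10 correlated with the glucocorticoid score at adjusted p under 0.05, and Junb did with the mitochondrial share of counts by r (-0.32, adjusted p = 0.0257) but not by rho (-0.26, adjusted p = 0.0843).

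In the liver 7 of the 10 genes passed the filter on low counts, and 3 of them rose with age. Junb, Egr2 and Nr4a1 were 2.17, 2.63 and 2.41 times as high at 28 as at 3 months in the fit, and the other 4, Fos, Fosb, Egr1 and Homer1, were not called. The 3 called members stand against 61.9% of all 15579 liver genes called in that comparison and 31.9% called higher, so 3 of 7 is again near the background. Egr4 had at most 2 counts in any liver library, and 14 to 17 libraries of each age had 0 counts except at 3 months, where all 16 did. Npas4 had at most 11 counts. Arc had a median of 4.5 to 9 counts per library, with 1 library of 143 counts at 28 months. These 3 genes did not pass the filter. With no filter on low counts Arc was called higher at 28 against 3 months (1.21, adjusted p = 0.00332) and at 28 against 24 months (1.01, adjusted p = 0.0484). The library of 143 counts, replicate 14, stood at 3.54 CPM against a median of 0.246 CPM and a second highest of 0.583 CPM at its age. Without it the values were 0.40 (adjusted p = 0.277) and 0.22 (adjusted p = 0.69), and neither call remained.

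Junb stood at 7.28, 13.5 and 48.7 CPM at 3 months. It stood at 8.84, 19.9 and 46.3 CPM at 9 months and at 9.60, 25.6 and 90.7 CPM at 15 months. It reached 9.04, 35.4 and 127 CPM at 24 months and 21.2, 36.5 and 71.1 CPM at 28 months. The median rose at each age, and at 28 months even the lowest library was above the young median, although the groups overlapped. The log2 fold change was 1.00 ± 0.27 at 24 months (adjusted p = 0.00179) and 1.12 ± 0.27 at 28 months (adjusted p = 0.000287). The 24-month call was lost in voom (0.55, adjusted p = 0.0788). With 1 prep at a time the 24-month value was 1.23, 1.00 and 0.74, called in none, and the 28-month value 1.28, 1.20 and 0.82, called in prep 1. With the clock score as a covariate the 28-month value was 0.60 (adjusted p = 0.0485). Junb exons overlap those of Prdx2 on the opposite strand by 173 bases, and whether counting used the strand is not given in the sources used here. Prdx2 itself went the other way in the liver, with means of 97.7 ± 10.4 CPM in young and 90 ± 6.08 CPM in old livers (a change of -0.12 ± 0.04, adjusted p = 0.0157).

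Nr4a1 stood at 1.25, 2.06 and 5.41 CPM at 3 months. It stood at 1.24, 2.30 and 4.88 CPM at 9 months and at 1.82, 2.60 and 10.7 CPM at 15 months. It stood at 1.46, 3.37 and 12.1 CPM at 24 months and at 1.49, 4.65 and 12.3 CPM at 28 months. The highest old livers stood far above the young range while the lowest stood near the lowest young ones, so the groups overlapped in the lower part. The log2 fold change was 0.90 ± 0.27 at 24 months (adjusted p = 0.00373) and 1.27 ± 0.27 at 28 months (adjusted p = 3.22e-05). The 24-month call was lost in voom (0.44, adjusted p = 0.132), and with the Kupffer and lymphocyte scores described below as covariates both calls were lost, at -0.18 (adjusted p = 0.678) at 24 and 0.03 (adjusted p = 0.945) at 28 months. In preps 1, 2 and 3 alone the 24-month value was 0.13, 1.14 and 1.05, called in preps 2 and 3, and the 28-month value 1.60, 0.68 and 1.32, called in preps 1 and 3.

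Egr2, which in the liver is low and in immune cells controls lymphocyte and macrophage programmes, stood at 0.0437, 0.224 and 2.85 CPM at 3 months, where the median library held 7 counts. It stood at 0.130, 0.213 and 0.541 CPM at 9 months and at 0, 0.279 and 1.13 CPM at 15 months. It stood at 0.261, 0.640 and 5.53 CPM at 24 months and at 0.182, 0.799 and 3.30 CPM at 28 months. From 15 to 24 months its log2 fold change was 1.53 ± 0.42 (adjusted p = 0.00273), the 1 member called there against 36% of all genes and 21.6% higher, and 0 were called from 24 to 28 months against 15.3% (edgeR, with 0 at an unadjusted p under 0.05, and 2 called by voom). Against 3 months Egr2 was at 1.33 ± 0.40 at 24 months (adjusted p = 0.00448) and 1.39 ± 0.40 at 28 months (adjusted p = 0.00204). The values without single libraries ran from 0.92 to 1.99 at 24 months and from 1.22 to 1.97 at 28 months, all called. The liver library least like the others, replicate 13 at 24 months (mean correlation of 0.92), held the highest Egr2 level and the highest 24-month Nr4a1 level. Without it and the next one, replicate 9 at 28 months, Egr2 was 0.91 (adjusted p = 0.0442) at 24 months, 1.24 at 28 months and 1.10 (adjusted p = 0.0274) from 15 to 24 months, and Nr4a1 was 0.71 (adjusted p = 0.0179) at 24 and 1.17 at 28 months, all called. The preps did not share 1 course. In preps 1, 2 and 3 alone the change from 15 to 24 months was -0.27, 2.24 and 2.81, called in preps 2 and 3. Against 3 months it was 0.24, 1.42 and 1.98 at 24 months and 1.51, 0.41 and 2.20 at 28 months, called in prep 3 alone at both ages. With the same scores as covariates the change from 15 to 24 months was 0.18 (adjusted p = 0.74), and against 3 months it was -0.62 (adjusted p = 0.143) at 24 months.

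**Figure D4:**
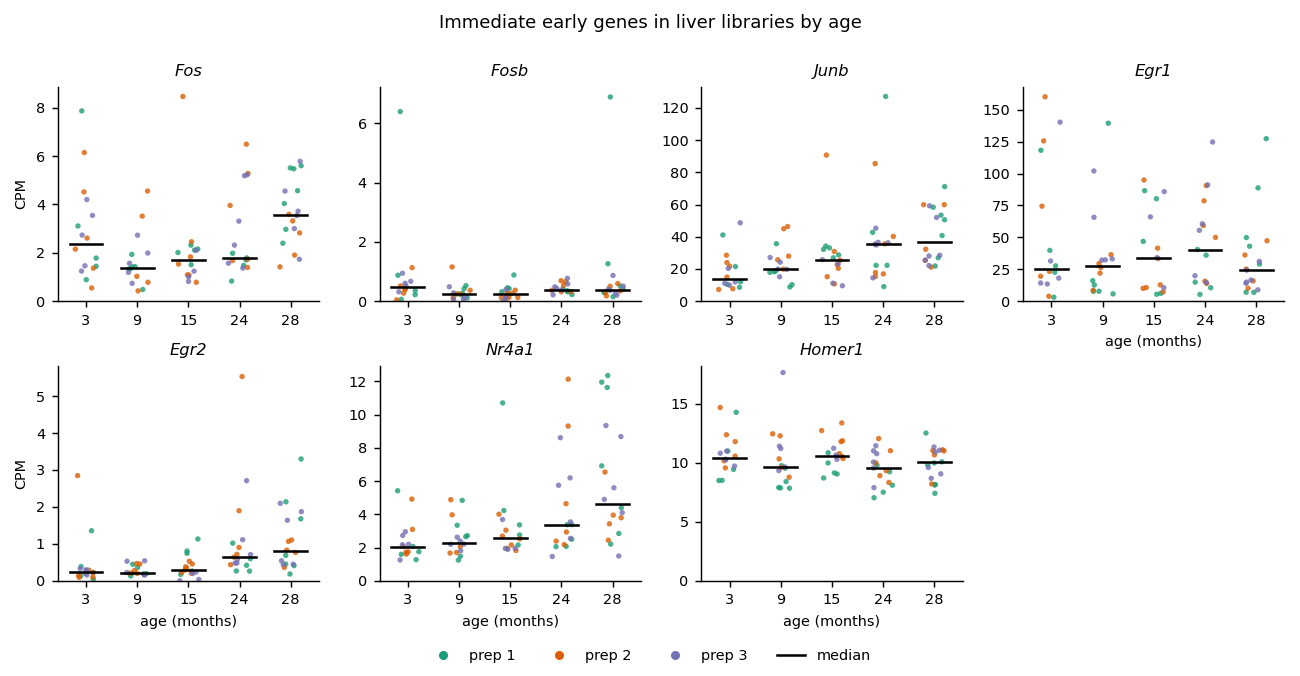
Level of the 7 tested genes in CPM (y axes, linear from 0) in every liver library, by age in months (x axes). Points are single libraries, coloured by prep, and black bars are medians. The Junb median goes from 13.5 to 36.5 CPM, the Nr4a1 median from 2.06 to 4.65 CPM and the Egr2 median from 0.224 to 0.799 CPM between 3 and 28 months, and Fosb shows 2 isolated libraries of 6.39 and 6.88 CPM.

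Fosb calls in the liver did not outlast the removal of single libraries. The Fosb median was 0.471 CPM at 3 months, 0.246 at 9, 0.251 at 15, 0.377 at 24 and 0.386 at 28 months, but 1 young liver (replicate 2) stood at 6.39 CPM and 1 old liver (replicate 2 at 28 months) at 6.88 CPM. The comparisons with 3 months share the young one. Fosb was called lower at 9 months (-1.36 ± 0.42, adjusted p = 0.0433) and at 15 months (-1.57 ± 0.43, adjusted p = 0.0151), the only member called at either age, against 4.69% and 7.32% of all genes, with 3.16% and 4.26% lower. Without the young replicate 2 the values were -0.78 (adjusted p = 0.244) and -0.95 (adjusted p = 0.148), and neither call remained. At 15 months that library was the only 1 whose removal ended the call, while the 9-month call held in 15 of the 32 fits without 1 library and was lost in the others, with values between -1.43 and -0.78 where it was lost. Both calls were also lost with each prep alone. At 28 months the value was -0.22 ± 0.38, and it was 0.45 without that library and -0.88 (adjusted p = 0.0244) without the old one.

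Fos stood at 0.549, 2.38 and 7.87 CPM at 3 months and at 1.42, 3.57 and 5.78 CPM at 28 months (a log2 change of 0.39 ± 0.29, adjusted p = 0.239). Its medians of 1.38, 1.68 and 1.79 CPM at 9, 15 and 24 months were the lowest, and with all ages tested together Fos differed (adjusted p = 0.00301). In that test 5 of 7 genes differed, Fos, Fosb, Junb, Egr2 and Nr4a1, against 71.5% of all genes. Egr1, at 3.14, 25.5 and 160 CPM at 3 months and 6.97, 24.8 and 127 CPM at 28 months, had the widest spread, a biological coefficient of variation of 87.2%, higher than in 99.8% of 2022 genes of like level. Its change of -0.67 ± 0.47 was not called (adjusted p = 0.21), but it was -1.20 and called with the clock score as covariate (adjusted p = 0.0348), and it was 0.24, -1.32 and -1.24 in preps 1, 2 and 3 alone, called in none. Homer1, the steadiest member in the liver with a coefficient of 14.2%, was slightly lower at 24 months (-0.19 ± 0.07, adjusted p = 0.0277), which made 4 of 7 called there against 49% of all genes, with 25% higher, and not at 28 months (-0.10 ± 0.07). That call was lost without replicate 4, 5 or 7 at 3 months or replicate 10 at 24 months (-0.14, -0.16, -0.17 and -0.17), with no prep term (-0.18, adjusted p = 0.0587), with only both ages fitted (-0.18, adjusted p = 0.0526), in voom (-0.13, adjusted p = 0.0958), with the marker scores as covariates (-0.16) and in each prep alone (-0.32, -0.22 and -0.03).

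Markers of other cells moved with the liver genes. Of 6 Kupffer cell markers 6 were higher at 28 months (median 1.42, summed 304 to 1050 CPM at 3 and 480 to 3420 CPM at 28 months). Of 6 lymphocyte markers 6 were higher (median 2.93, summed 3.13 to 19.7 and 7.14 to 268 CPM), and of 5 neutrophil markers tested 5 were higher (median 3.52). None of these markers was at 0 in all libraries. Within ages, Egr2 correlated with the lymphocyte score (r = 0.67, adjusted p = 8.75e-05) and the Kupffer score (0.54, adjusted p = 8.75e-05), and Nr4a1 with the same scores (0.50 and 0.51, adjusted p = 8.75e-05 for both), among 35 relations chosen after the data were seen, of which 15 were called by r. Junb and Fos correlated with the neutrophil score (0.34 for both, adjusted p = 0.0158 and 0.007), and Egr1 negatively with a heat shock score (-0.38, adjusted p = 0.00679), whose 6 genes were all lower at 28 months. Spearman's rho of these relations passed as well, at 0.58 and 0.45 for Egr2, 0.34 and 0.40 for Nr4a1, 0.32 for Junb and Fos and -0.37 for Egr1. Egr2 and Nr4a1 also correlated with an endothelial score by r (0.33 for both) and rho (0.34 and 0.30). Of its 6 markers 2 were higher and 2 lower at 28 months (median 0.01). Called by r but not by rho were Egr2 and Nr4a1 with the neutrophil score (0.32 and 0.30) and Egr1 with the endothelial and lymphocyte scores (0.25 and 0.28). So were Fos with the Kupffer score (0.26) and Fosb with the lymphocyte score (0.28). With Kupffer and lymphocyte scores as covariates, Junb stayed higher at 28 months (0.96, adjusted p = 0.0243), while Egr2 (-0.76, adjusted p = 0.0621) and, as given above, Nr4a1 were no longer called, and Fosb was called lower (-1.61, adjusted p = 0.0203). The scores rose with age themselves, so age and cell content cannot be told apart in that fit.

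The liver clock genes also moved, with 5 of 6 higher at 28 months (median 2.28, summed 47.4 to 545 CPM at 3 and 94.8 to 731 CPM at 28 months) and both Bmal1 and Npas2 lower. Of the 7 genes, Junb correlated with the clock score within ages (r = 0.42, adjusted p = 0.00102, and rho = 0.38, adjusted p = 0.00836) and with the glucocorticoid score (r = 0.39, adjusted p = 0.00319, and rho = 0.37, adjusted p = 0.00884). The mitochondrial share of counts correlated negatively with Junb (r = -0.50, rho = -0.44, adjusted p = 0.00051), Fos (r = -0.36, rho = -0.39, adjusted p = 0.00745), Egr2 (r = -0.32, rho = -0.39, adjusted p = 0.0257) and Nr4a1 (r = -0.32, rho = -0.31, adjusted p = 0.0435), where each adjusted p is that of r and the rho values passed as well. Without the 2 farthest libraries the Nr4a1 relation was no longer called (-0.28, adjusted p = 0.107) and the others kept their call. Its median was 5.32% at 3 and 4.38% at 28 months. Their part in the age differences was not tested beyond the covariate fits above.

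In the liver 12 of 21 pairs of genes were called, with a median correlation of 0.35. The closest were Fos and Nr4a1 (0.61), Fos and Junb (0.60), Egr2 and Nr4a1 (0.59) and Fosb and Egr2 (0.56). Homer1 stood apart, with correlations between -0.22 and -0.01 to the other 6 genes and none called. Within preps 5, 7 and 3 of the 21 pairs were called. The 7 highest levels came from 7 different liver libraries. The 6 genes most like the mean of the 7 were Klf6 (r = 0.65), Agpat4 (0.65), Pik3r5 (0.64), Arrb1 (0.64), Tnfaip3 (0.64) and Sh3pxd2b (0.63), over 83 libraries and 12753 genes, and all 6 were higher at 28 months, from 0.38 ± 0.08 for Arrb1 to 2.30 ± 0.25 for Sh3pxd2b.

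The other genes of the response were likewise called in both directions in the liver at 28 months. Against 61.9% of all liver genes called and 31.9% higher, 9 of 17 other early factors were higher and 1 lower, with a median of 0.41, and the highest of at least 1 CPM were Myc (1.23 ± 0.33, adjusted p = 0.000892), a growth regulator, and Klf6 (0.96 ± 0.13, adjusted p = 4.56e-09), with Nfil3 lower (-0.86 ± 0.21, adjusted p = 0.000278) as it was in the brain. Of 21 early effectors and feedback genes 6 were higher and 7 lower, with a median of -0.07. Ccn2, a matrix-associated growth factor, went from 8.01 ± 4.45 to 24.4 ± 12.7 CPM (1.55 ± 0.26, adjusted p = 2.59e-07) and Rgs2, a regulator of G-protein signalling, from 6.66 ± 3.30 to 14.7 ± 5.94 CPM (1.13 ± 0.18, adjusted p = 1.1e-07), while Ccn1 (-0.52 ± 0.16, adjusted p = 0.00322) and Trib1 (-0.39 ± 0.15, adjusted p = 0.0181) were lower. Of 9 delayed activity genes tested 2 were higher and 3 lower, among them Rasgrp1, a Ras activator of lymphocytes, higher (1.74 ± 0.27, adjusted p = 5.73e-08), and Nrn1, higher (0.22 ± 0.10, adjusted p = 0.0427), with Bdnf (-1.01 ± 0.22, adjusted p = 6.25e-05) and Inhba (-0.77 ± 0.22, adjusted p = 0.00177) lower. Of 33 upstream genes 13 were higher and 7 lower, with Camk2b (1.04 ± 0.21, adjusted p = 1.36e-05) and Cacna1d (0.96 ± 0.17, adjusted p = 8.02e-07) the highest above 1 CPM, and Hdac5 (-0.52 ± 0.09, adjusted p = 1.12e-06) and Map2k1 (-0.32 ± 0.04, adjusted p = 1.48e-11) the lowest. Of 10 partners of Homer and Arc 4 were higher, with Dlg4 (1.11 ± 0.19, adjusted p = 4.44e-07) and Dlgap1 (0.92 ± 0.18, adjusted p = 8.12e-06) leading above 1 CPM. No test of the lists was made.

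At 3 months all but Egr1 of the 7 genes that passed the filter in both tissues were higher in brain than in liver in a joint fit. In that fit 92.2% of all 20255 genes differed between the tissues and 51.9% were higher in brain. Arc, Egr4 and Npas4 entered it only through the brain, where they are high, so they are given as levels and not counted as calls. Levels in CPM are scaled within each tissue, so the size of a difference is given from the joint fit. Arc had a mean of 138 CPM in brain and 0.166 CPM in liver. Egr4 and Npas4 had means of 21.1 and 12.5 CPM in brain, while no liver library held more than 3 counts of either at that age. The log2 difference was 4.06 ± 0.22 for Nr4a1 and 3.01 ± 0.09 for Homer1, whose lowest brain levels (50 and 112 CPM) stood far above the highest liver levels (5.41 and 14.7 CPM). It was 2.79 ± 0.27 for Fosb, with medians of 9.32 CPM in brain and 0.471 CPM in liver and 1 liver library at 6.39 CPM. Fos, Junb and Egr2 overlapped, with log2 differences of 1.18 ± 0.27, 0.62 ± 0.21 and 1.87 ± 0.35. Egr1 was the exception, at 0.60 ± 0.36 (adjusted p = 0.103). With the mouse as a block, since both tissues came from the same animals, Egr1 was at 1.34 (adjusted p = 0.00231). In that fit all genes that passed the filter in both tissues were called. Per length and over all ages the liver order was Junb, at 13.1 ± 8.77 CPM per kb over 83 libraries, then Egr1 at 9.20 ± 8.50, Fos at 1.12 ± 0.744, Nr4a1 at 1.07 ± 0.779 and Homer1 at 0.854 ± 0.145, followed by Egr2 at 0.201 ± 0.250 and Fosb at 0.0864 ± 0.160. Neighbours among these differed by less than the larger SD except Homer1 and Egr2. The order was not the same at each age. At 3 months the mean of Egr1 (11.7 CPM per kb) was above that of Junb (8.15) and Homer1 (0.902) above Nr4a1 (0.685), and at 28 months Junb (17.8) was above Egr1 (7.4) and Nr4a1 (1.69) above Fos (1.56).

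The change with age differed between the tissues for 4 of the 7 genes tested in both, against 48.5% of 14035 genes, and the difference was negative for all 4 and for 27% of all genes. The brain change minus the liver change from 3 to 28 months was -2.01 ± 0.46 log2 units for Egr2 (adjusted p = 0.000142), -1.42 ± 0.28 for Nr4a1 (adjusted p = 9.7e-06) and -1.24 ± 0.29 for Junb (adjusted p = 0.000171), each higher with age in liver and not in brain. For Homer1 it was -0.45 ± 0.11 (adjusted p = 0.000585), lower in brain and not called in liver at 28 months. For Fos (-0.69 ± 0.37, adjusted p = 0.112), Fosb (0.25 ± 0.36) and Egr1 (0.42 ± 0.49) the difference was not called. With the mouse as a block the same 4 genes were called.

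**Figure D5:**
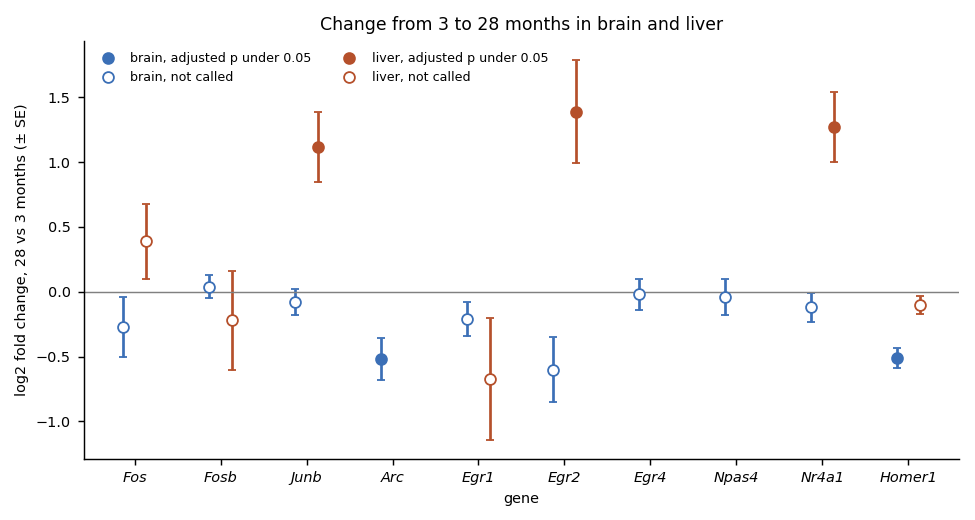
Log2 fold change from 3 to 28 months with its SE (y axis) for each gene in brain (blue) and liver (orange). Filled points have an adjusted p under 0.05, and genes not tested in the liver have no orange point. Arc and Homer1 lie at -0.52 and -0.51 in the brain, and Junb, Egr2 and Nr4a1 at 1.12, 1.39 and 1.27 in the liver.

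Levels in brain and liver of the same mouse were compared as well. Over 82 mice, with age and prep removed, the correlations of the 7 genes ran from -0.18 for Junb to 0.20 for Fosb, and 0 of 7 were called (permutation test within age, lowest adjusted p = 0.398; 0 had an unadjusted p under 0.05). Prep by prep 0 of 7 were called in each.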

How the data were processed

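Polyadenylated RNA of brain and liver was sequenced as stranded paired reads of 100 bases, per the labels' protocols, and the authors deposited 1 table of raw read counts per gene for each tissue. The submitters' processing notes name cutadapt 2.8, HISAT2 2.1.0, SAMtools 1.9, featureCounts, Subread 2.0.1 and the builds GRCm38.p6 and mm10, with no role or order. The strand setting of counting, the annotation release and the handling of shared reads are not given in the sources used here.

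Of 55471 Ensembl identifiers, 55144 matched a symbol. Counts were filtered with filterByExpr, scaled by TMM and fitted per tissue with age and prep as terms by edgeR's quasi-likelihood test (edgeR 4.0.16, limma 3.58.1, R 4.3.3), with Benjamini-Hochberg adjustment over all genes tested and a threshold of 0.05. The SE is the absolute log2 fold change over the square root of F. A joint fit of both tissues tested differences between them. CPM are of TMM-scaled libraries, and levels per length use GENCODE exons. A value at or under 3 counts is treated as the floor. Correlations used log2 CPM (prior count 2) after removing age and prep means, with 100000 permutations within age, whose smallest p is 1e-05. P-values of the fits per tissue are set against the spread between mice. The main joint fit took both tissues of a mouse as separate libraries, and the fit with the mouse as a block used the pairing. Permutation p-values test a correlation or a ratio of SDs. The scripts were tested on simulated counts. No 2 libraries agreed within counting noise.

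The 10 genes and all lists were chosen with earlier results of these data known. From each list of response genes, the text names up to 2 of the highest and 2 of the lowest called changes at 28 months among genes of at least 1 CPM, and per tissue the 6 genes most like the member mean. Alternatives were other normalization, filters, DESeq2 1.42.0, voom, single preps, covariates, blocks and leaving out each library. Marker covariates and correlations, the fits without the 2 least-alike libraries and part of the fits without single libraries were chosen after seeing the data.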

Additional observations from a re-analysis of the deposited data

Results flagged for a closer look

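For 4 of the 7 genes tested in both tissues the change from 3 to 28 months differed between brain and liver in the joint edgeR fit. The brain change minus the liver change was -1.24 log2 units for Junb (adjusted p = 0.000171), -2.01 for Egr2 (adjusted p = 0.000142), -1.42 for Nr4a1 (adjusted p = 9.7e-06) and -0.45 for Homer1 (adjusted p = 0.000585). With the mouse as a block these were -1.31, -2.14, -1.33 and -0.47, all called. Of all 14035 genes tested in both tissues 48.5% differed.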

How the results depend on the processing

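Depth limits Egr2 and Fosb in the liver, where the median library held 7 and 14.5 counts at 3 months, and Arc, Egr4 and Npas4 there did not pass the filter. The causes of the changes listed here were not tested.

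Member counts called moved by over 1.5 times as follows, with smaller moves given for 28 against 3 months. Brain 24 against 3 months (1 called) gave 0 with no filter, in each prep alone and with marker scores, and 2 with the clock score, with only both ages fitted, with voom, with DESeq2 and without the 2 least-alike libraries. Brain 28 against 3 months (2 called) gave 1 with the clock score, with marker scores and in preps 1 and 3, 0 in prep 2 and 3 with voom, which added Egr2. Brain 28 against 24 months (0 called) gave 1 with voom, DESeq2, marker scores and without the 2 least-alike libraries. All brain ages together (2 called) gave 1 with the replicate block, the clock score, marker scores and in prep 1, and 0 in prep 3.

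Liver 9 against 3 months (1 called) gave 0 with no filter, a filter of 1 CPM, the replicate block, the clock score, each prep alone and only both ages fitted. Liver 15 against 3 months (1 called) gave 0 at a filter of 1 CPM, the replicate block and each prep alone; Fosb and Egr2 were not tested at that filter. Liver 24 against 3 months (4 called) gave 0, 1 and 2 in preps 1, 2 and 3, 1 with voom (Egr2) and 2 with marker scores. Liver 28 against 3 months (3 called) gave 0 in prep 2, 2 in preps 1 and 3, at the filter of 1 CPM and with marker scores (Junb and Fosb), and 4 with the clock score (Egr1 added), voom (Fos added) and no filter (Arc added). Liver 24 against 15 months (1 called) gave 0 in prep 1 and with marker scores, 2 in prep 2, with RLE size factors, voom, DESeq2 and without the 2 least-alike libraries, and 3 with only both ages fitted. Liver 28 against 24 months (0 called) gave 1 with no filter and 2 in prep 1 and with voom. All liver ages together (5 called) gave 3 at the filter of 1 CPM and 1 in prep 2 and with marker scores. Liver pairs called (12) were 5, 7 and 3 in preps 1, 2 and 3, and relations with other measures called (10) were 0, 3 and 0.

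Signs turned for genes not called in the brain at 28 months: Fos 0.09 with the clock score and 0.02 in prep 1, Fosb -0.03 in prep 2, Junb 0.01 in prep 3, Egr1 0.04 and Nr4a1 0.01 with the clock score, Egr4 0.03 in prep 2, 0.08 in prep 3 and 0.06 with marker scores, and Npas4 0.15 in prep 1 and 0.16 in prep 3. In the liver at 28 months Fos was -0.14 in prep 2 and -0.20 with marker scores, Fosb 0.49 with the clock score, Egr1 0.24 in prep 1 and Egr2 -0.76 with marker scores. At 24 against 3 months Egr2 was -0.62 and Nr4a1 -0.18 with marker scores, and at 24 against 15 months Egr2 was -0.27 in prep 1.

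Without single libraries, counts ran from 0 to 2 (brain 24 against 3 months), 2 to 3 (brain 28 against 3), 0 to 2, 0 to 1, 3 to 4 and 3 to 4 (liver 9, 15, 24 and 28 against 3) and 1 to 3 (liver 24 against 15). Values at 28 months ran from -0.06 to 0.05 for brain Egr4, from -0.12 to 0.00 for brain Npas4 and from -0.88 to 0.45 for liver Fosb.

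Replicate numbers pair no mice across ages: 6 of 15 same-numbered pairs of 3 and 28 months correlated over 0.1 in the brain and 2 of 16 in the liver, and 0 and 2 libraries were best with their own number. With the number as a block, 1 member was called in the brain at 24 months, Homer1 in place of Arc.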
